A study of Mus musculus with 9 samples.

Results

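The genes described here are 36 mouse genes of the centromere, the kinetochore and the spindle checkpoint, taken by symbol from RNA count tables of 56262 genes. All 36 were found, and all 36 passed the filter on low counts, as did 16595 genes in all. The lowest count of any of them in a library was 50 read pairs (Cenpp in Control) and the highest 5222 (Incenp), so every one was measured in every library. They fall into 7 roles: centromeric chromatin (2 genes), the constitutive centromere-associated network (13), the outer kinetochore (8), the fibrous corona (2), the spindle checkpoint (5), the chromosomal passenger complex (4) and the shugoshins (2).

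The libraries, 3 in each of 3 groups, came from wild-type C57BL/6 mice. Their source was bone marrow cells labelled long-term hematopoietic stem cells (LT-HSCs). Control mice were untreated. 5-FU+Saline mice received 5-FU (5-fluorouracil, which kills dividing cells) at 250 mg/kg and then saline, named PBS in the series text. 5-FU+FMT mice received the same dose of 5-FU and then FMT, an agent that the labels do not spell out, by vein at 5 mg/kg on days 1, 4 and 7. Killing on day 8 is given for the treated mice. The sort kept cells that were lineage-negative and positive for Sca1, c-Kit and CD150, and a last marker is written C48-. The labels give neither the sex or age of the mice nor the number of mice behind a library, so the p-values may measure only technical spread between libraries.

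A kinetochore is the protein structure that joins a chromosome to the spindle when a cell divides. It is built on chromatin that carries CENP-A, a variant of histone H3, through an inner layer, the constitutive centromere-associated network, which stays at the centromere through the cell cycle. The outer layer of KNL1, MIS12 and NDC80 complexes binds microtubules. The spindle checkpoint holds back anaphase until chromosomes are attached, the chromosomal passenger complex corrects wrong attachments, and shugoshins protect centromeric cohesin. Most LT-HSCs are in a resting state, and 5-FU is widely used to drive surviving stem cells into division.

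Total counts were between 11098031 and 19270976 per library, and 22813 to 24237 genes were detected. Libraries of a group differed little from each other (chi-square per degree of freedom 2.14 to 2.56 in 9 pairs) against 23.3 to 131 between groups (27 pairs), and none was left out. Detection of markers could not check the labelled cell type, because the markers listed for other cell types were detected as well. All 10 LT-HSC markers were detected. Their sum was 2015 to 2031 CPM (counts scaled to the size and composition of each library) in Control, 1235 to 1248 with 5-FU and saline, and 1527 to 1575 with 5-FU and FMT. Of the 10, 4 rose and 4 fell in 5-FU+Saline against Control, beside 32.8% higher and 32.7% lower among all genes tested. Slamf1, which encodes the sorted marker CD150, was at 8.35 CPM in Control, against 34.5 in 5-FU+Saline and 24.4 in 5-FU+FMT, and Cd48 was at 30.7, 53.7 and 46.7 CPM. Xist, the RNA that coats the inactive X chromosome in female cells, was at 0.533 to 1.34 CPM in Control, 1183 to 1223 with 5-FU and saline, and 659 to 695 with 5-FU and FMT. The groups therefore differed in Xist as well as in treatment, and the part of that difference in the results was not tested.

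Centromere and kinetochore genes were higher after 5-FU and saline than in Control. Summed over the 36 genes, the level was 1608 ± 13.0 CPM in Control (SD, n = 3), 3011 ± 38.8 in 5-FU+Saline and 2473 ± 17.1 in 5-FU+FMT. Against Control, 35 genes rose in 5-FU+Saline and 0 fell, with Cenpu not called, by edgeR's quasi-likelihood test at a Benjamini-Hochberg adjusted p under 0.05. At an unadjusted p under 0.05 the counts were 36 and 0, and DESeq2 and limma-voom each also called 35 higher and 0 lower. Among all genes tested, 65.5% were called in either direction, 32.8% higher and 32.7% lower. The median log2 fold change of the 36 genes was 0.98, or 1.97-fold, beside -0.02 for all genes tested. The values of the 3 groups are from bulk RNA, in which more cells of a type and more RNA per cell cannot be told apart.

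In mice given FMT after 5-FU most of these genes were lower than in mice given saline. Of the 36, 24 fell in 5-FU+FMT against 5-FU+Saline and 0 rose, while 36.9% of all genes tested were called, 19.2% lower and 17.7% higher. At an unadjusted p under 0.05 the counts were 28 and 0, DESeq2 called 24 and 0, and limma-voom 25 and 0. The median log2 fold change was -0.29, a 1.22-fold lower level, beside 0.01 for all genes tested. Against Control, 34 of the 36 were still higher in 5-FU+FMT and 0 were lower, by edgeR, DESeq2 and limma-voom alike and at an unadjusted p under 0.05. The background was 46.6% called, 25.0% higher and 21.6% lower, which became 3315 genes higher and 4559 lower under upper-quartile scaling, against 4151 and 3584 as fitted. The median was 0.69 beside -0.01 for all genes. These comparisons share libraries: 5-FU+Saline serves both the first and the second, so a value of that group that is high by chance enters both.

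The order of the groups was the same for nearly every gene. By group means, 35 of the 36 genes were lowest in Control, intermediate in 5-FU+FMT and highest in 5-FU+Saline. In 28 of them the libraries of the 3 groups did not overlap at all, an order found in 17.3% of the genes tested. For the order of means alone, the share among all genes was not counted. Between 5-FU+Saline and Control all 36 genes were without overlap (67.8% of all genes), between 5-FU+FMT and 5-FU+Saline 28 (46.3%), and between 5-FU+FMT and Control 35 (52.7%). Ranked among all tested genes by log2 fold change, the members lay between percentiles 68.1 and 95.6 in 5-FU+Saline against Control (median 92.9) and between 6.75 and 49.0 in 5-FU+FMT against 5-FU+Saline (median 13.7).

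**Figure D1:**
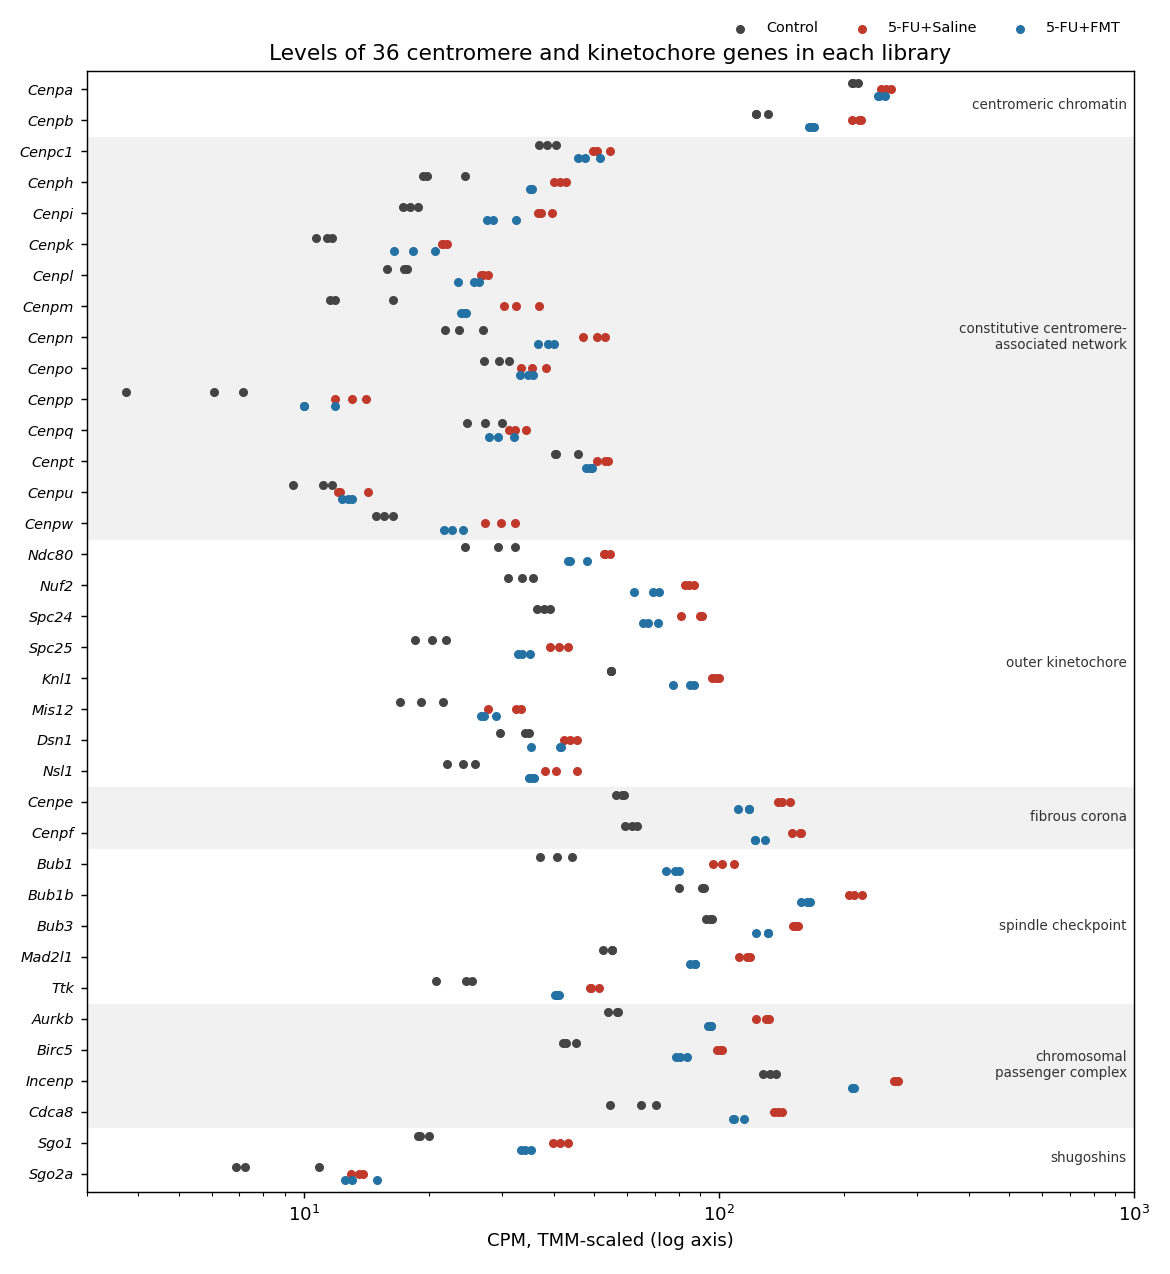
Level of each of the 36 genes in each of the 9 libraries, as CPM on a log axis, grouped by role (shaded bands), with a point for each library. For 35 of the 36 genes the group means run from Control through 5-FU+FMT to 5-FU+Saline, and the points of 28 genes do not overlap between any of the groups.

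Centromeric chromatin moved little at its core. Cenpa (ENSMUSG00000029177.9, chr5:30666777-30674830 on mm10), which encodes the histone variant that marks the centromere, was at 210.4, 209 and 216 CPM in Control, against 259, 246 and 252 in 5-FU+Saline, then 242, 251 and 243 in 5-FU+FMT. The Control libraries lay below all others, and the 5-FU+Saline and 5-FU+FMT libraries overlapped. Cenpa rose 1.19-fold in 5-FU+Saline against Control (log2 fold change 0.25, SE 0.032, adjusted p = 1.40e-10), and the log2 difference between 5-FU+FMT and 5-FU+Saline was -0.04 (adjusted p = 0.369). Cenpb (chr2:131175182-131180067), whose protein binds a short DNA box in centromeric repeats, was at 123, 131 and 123 CPM, then 220.2, 217 and 209, then 167, 169 and 165. Its groups were fully separate: it rose 1.71-fold with 5-FU and saline (adjusted p = 1.37e-31) and was 1.29-fold lower with FMT than with saline (log2 -0.37, SE 0.035, adjusted p = 1.41e-14).

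The 13 genes of the constitutive centromere-associated network split between steep and shallow changes. In 5-FU+Saline against Control 12 of 13 rose, and in 5-FU+FMT against 5-FU+Saline 5 of 13 fell. Among all genes tested, 32.8% were called higher in the first comparison and 19.2% lower in the second, the background for every count by role. The median log2 changes over all 13 were 0.92 and -0.23. Cenpm (ENSMUSG00000068101.11, chr15:82233779-82244748), of the CENP-H-I-K-M complex, was at 11.6, 16.4 and 11.9 CPM in Control, 30.3, 36.8 and 32.5 with 5-FU and saline, and 23.9, 24.6 and 24.3 with 5-FU and FMT. No library of one group reached another, and Cenpm had both the largest fitted rise of the 36 genes with 5-FU and saline (2.54-fold, log2 1.35, SE 0.099, adjusted p = 1.12e-20) and the largest fitted fall with FMT (1.37-fold, log2 -0.45, SE 0.090, adjusted p = 2.45e-05). Its neighbours in that complex, Cenph, Cenpi and Cenpk, rose by 0.95, 1.06 and 0.95 on the log2 scale. Cenpi lies on the X chromosome, and the part of the Xist difference in its values was not tested.

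Cenpk was at 10.7, 11.7 and 11.4 CPM in Control, against 21.6, 22.2 and 21.5 in 5-FU+Saline, then 20.7, 16.5 and 18.3 in 5-FU+FMT. The 5-FU+FMT libraries lay below those of 5-FU+Saline, one of them closely, and the difference was not called (log2 -0.23, adjusted p = 0.0564). Leaving out 5-FU+FMT replicate 1 gave an adjusted p of 0.0200 for Cenpk. Cenpn, whose protein reads the CENP-A nucleosome, was at 21.9, 27.1 and 23.7 CPM in Control, 51.0, 47.1 and 53.3 with 5-FU and saline, and 40.0, 38.7 and 36.6 with 5-FU and FMT. It rose 2.10-fold and then was 1.31-fold lower (adjusted p = 1.56e-21 and 3.38e-06). Its partner Cenpl was at 17.7, 17.4 and 15.9 CPM, then 27.8, 27.0 and 26.8, then 23.5, 25.7 and 26.5. Cenpl rose 1.61-fold with 5-FU and saline, and its lower values with FMT were not called (log2 -0.11, adjusted p = 0.330).

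The CENP-O-P-Q-U complex, which recruits the kinase PLK1 to the inner kinetochore, held genes with some of the smallest changes. Cenpo was at 31.2, 29.6 and 27.2 CPM in Control, against 38.3, 33.3 and 35.4 in 5-FU+Saline, then 33.1, 35.7 and 34.6 in 5-FU+FMT, and rose by a log2 of 0.29 (adjusted p = 7.60e-04). Cenpq was at 24.7, 27.3 and 30.0 CPM, then 31.2, 34.3 and 32.3, then 32.1, 29.3 and 28.0, and rose by 0.25 (adjusted p = 0.00591, and 0.0718 without Control replicate 1). Cenpu was at 9.40, 11.1 and 11.7 CPM, then 12.2, 12.1 and 14.3, then 13.1, 12.4 and 12.8. Control Cenpu libraries lay below the others, yet neither the difference of 0.26 in 5-FU+Saline (adjusted p = 0.0574) nor that of 0.24 in 5-FU+FMT (adjusted p = 0.105) was called. The first of them was called without Control replicate 3 (0.0318), 5-FU+Saline replicate 1 (0.0486) or 5-FU+Saline replicate 2 (0.0446).

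Cenpp, of the same complex, was low in Control, at 3.73, 7.15 and 6.08 CPM, then at 14.1, 11.9 and 13.1, and finally at 10.03, 10.04 and 11.9. It rose 2.32-fold in 5-FU+Saline (log2 1.21, SE 0.15, adjusted p = 5.81e-11). With FMT none of these genes passed the test against saline: the log2 differences were -0.05 for Cenpo, -0.29 for Cenpp, -0.13 for Cenpq and -0.02 for Cenpu, with adjusted p of 0.647, 0.0862, 0.210 and 0.933. In 5-FU+FMT against Control, Cenpo rose by 0.24 (adjusted p = 0.00902, and 0.0974 without Control replicate 3). Cenpq there differed by 0.12 (adjusted p = 0.251) and, like Cenpu, was not called. Counts were made without strand, and genes on the opposite strand cover part of these exons: Primpol covers 26.7% of the exon bases of Cenpu, Adcy3 19.0% of Cenpo, Ippk 12.3% of Cenpp and Mut 3.65% of Cenpq.

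Cenpc1, whose protein bridges CENP-A chromatin to the outer kinetochore, was at 38.6, 36.9 and 40.6 CPM in Control, 50.8, 49.8 and 54.7 with 5-FU and saline, and 45.8, 51.6 and 47.7 with 5-FU and FMT. The 5-FU+FMT libraries overlapped with those of 5-FU+Saline, and Cenpc1 rose 1.34-fold with 5-FU and saline but was not called lower with FMT (log2 -0.10, adjusted p = 0.217). Cenpt, which bridges the same layers by another route, was at 45.8, 40.5 and 40.4 CPM, then 54.2, 53.1 and 50.9, then 49.5, 48.8 and 47.8. It rose 1.25-fold (adjusted p = 1.03e-05), and its lower level with FMT was not called (log2 -0.11, adjusted p = 0.157) although the libraries did not overlap. Its rise in 5-FU+FMT against Control (0.21, adjusted p = 0.00642) missed the threshold without Control replicate 3 (0.0567). Cenpw, the histone-fold partner of Cenpt, rose 1.89-fold and was 1.30-fold lower with FMT.

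All 8 outer kinetochore genes rose in 5-FU+Saline and 6 of 8 fell with FMT, with median log2 changes over the 8 of 0.88 and -0.25. Nuf2 (ENSMUSG00000026683.14, chr1:169497934-169531464), a subunit of the NDC80 complex, was at 33.6, 31.0 and 35.7 CPM in Control, against 87.1, 82.8 and 84.7 in 5-FU+Saline, then 62.6, 69.5 and 71.7 in 5-FU+FMT. Its groups did not overlap, and it rose 2.52-fold (log2 1.33, SE 0.061, adjusted p = 3.08e-32) and was then 1.25-fold lower (log2 -0.32, SE 0.055, adjusted p = 1.41e-06). Spc24, also of the NDC80 complex, was at 37.9, 39.1 and 36.4 CPM, then 90.8, 80.9 and 89.9, then 65.6, 67.5 and 71.4, which is 2.32-fold higher and then 1.28-fold lower (adjusted p = 9.88e-31 and 6.52e-08). The other two subunits, Ndc80 and Spc25, rose by log2 0.92 and 1.01, and Knl1, the checkpoint platform, by 0.84.

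The MIS12 complex, the link from the inner to the outer layer, had fitted changes below those of Nuf2 and Spc24. Mis12 was at 21.6, 19.2 and 17.1 CPM in Control, 27.8, 33.3 and 32.5 with 5-FU and saline, and 29.1, 27.2 and 26.8 with 5-FU and FMT. Dsn1 was at 34.1, 34.8 and 29.7 CPM, then 45.4, 42.3 and 43.7, then 41.5, 35.3 and 41.6. Mis12 and Dsn1 rose 1.63-fold and 1.34-fold with 5-FU and saline, and neither was called lower with FMT (log2 -0.17 and -0.15, adjusted p = 0.111 and 0.0942). Nsl1, of the same complex, rose 1.72-fold and was 1.17-fold lower with FMT (adjusted p = 0.00960), a call that leaving out 5-FU+Saline replicate 3 ended (adjusted p = 0.154). Leaving out 5-FU+Saline replicate 1 brought Mis12 to an adjusted p of 0.0338. Derl2, on the opposite strand, covers 7.69% of the exon bases of Mis12.

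Both genes of the fibrous corona, the outermost layer that forms on kinetochores not yet attached, moved steeply. Cenpf (ENSMUSG00000026605.14, chr1:189640606-189688086), which encodes a large corona protein made late in the cell cycle, was at 59.4, 63.5 and 61.7 CPM in Control, against 158, 150.2 and 157 in 5-FU+Saline, then 122, 129 and 122 in 5-FU+FMT. Cenpe, which encodes a kinesin motor that carries chromosomes to the spindle equator, was at 58.4, 59.0 and 56.6 CPM, then 139, 142 and 148, then 118, 111 and 118. In neither gene did the groups overlap. Cenpf rose 2.53-fold (adjusted p = 5.58e-41) and Cenpe 2.48-fold (adjusted p = 1.86e-39), and with FMT they were lower by 0.32 and 0.31 on the log2 scale (adjusted p = 3.56e-10 and 2.28e-09).

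All 5 spindle checkpoint genes rose in 5-FU+Saline and all 5 fell with FMT, with medians of 1.10 and -0.39. Bub1 (ENSMUSG00000027379.13, chr2:127801122-127831865), a kinase that recruits shugoshin and other checkpoint proteins, was at 40.7, 37.1 and 44.4 CPM in Control, 109, 102 and 96.7 with 5-FU and saline, and 78.4, 80.3 and 74.4 with 5-FU and FMT. Bub1b, which encodes the checkpoint protein BUBR1, was at 92.1, 80.1 and 91.1 CPM, then 221, 206 and 212, then 163, 166 and 158. Mad2l1, which encodes the MAD2 protein of the checkpoint complex, was at 55.4, 55.4 and 52.5 CPM, then 117, 112 and 119, then 85.0, 87.8 and 87.6. Each of these genes had 3 separate groups. The log2 changes with 5-FU and saline were 1.31 for Bub1, 1.27 for Bub1b and 1.10 for Mad2l1, and those with FMT against saline -0.40, -0.39 and -0.42, with adjusted p of 1.32e-09, 1.72e-14 and 3.08e-12. On the same scale Bub3, a partner of BUB1 and BUBR1, rose by 0.69 and fell by 0.26, and Ttk, which encodes the kinase MPS1, rose by 1.07 and fell by 0.29.

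The 4 genes of the chromosomal passenger complex moved as a narrow group, with log2 changes from 1.01 to 1.21 with 5-FU and saline and from -0.43 to -0.30 with FMT against saline. Aurkb (ENSMUSG00000020897.12, chr11:69045647-69051664), the kinase of the complex, was at 54.1, 56.7 and 57.0 CPM in Control, against 132, 129.7 and 123 in 5-FU+Saline, then 95.7, 95.6 and 94.1 in 5-FU+FMT. Birc5, which encodes survivin, was at 45.3, 42.8 and 42.2 CPM, then 102, 100.5 and 98.7, then 80.6, 83.8 and 78.9. The scaffold gene Incenp was at 137, 133 and 128 CPM, then 264, 265 and 269.6, then 212, 210.4 and 209. In each of them Control was lowest and 5-FU+Saline highest, with no overlap. Cdca8, which encodes borealin, was at 70.5, 54.6 and 65.0 CPM, then 142, 136 and 139, then 109, 115 and 108. Its groups were separate as well. With FMT against saline Aurkb fell 1.35-fold (adjusted p = 3.11e-13), Incenp 1.27-fold (9.67e-15), Cdca8 1.26-fold (9.53e-09) and Birc5 1.24-fold (2.63e-07).

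Both shugoshins rose with 5-FU and saline, and 1 of them was called lower with FMT. Sgo1 (ENSMUSG00000023940.14, chr17:53674786-53689333), the protector of cohesin in mitosis, was at 20.0, 19.1 and 18.8 CPM in Control, 41.4, 39.8 and 43.3 with 5-FU and saline, and 35.3, 33.3 and 34.1 with 5-FU and FMT. Sgo2a, best known for its part in meiosis, was at 7.23, 10.9 and 6.88 CPM, then 13.0, 13.6 and 13.9, then 13.1, 12.6 and 15.0. Sgo1 rose 2.16-fold and was 1.21-fold lower with FMT (adjusted p = 0.00124). Sgo2a rose 1.66-fold in 5-FU+Saline (adjusted p = 1.93e-06), while its values with FMT and with saline overlapped (log2 0.00, SE 0.12, adjusted p = 0.995), and it is the gene that broke the order of group means. The difference between both genes was not tested, and Kctd18 on the opposite strand covers 35.0% of the exon bases of Sgo2a.

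**Figure D2:**
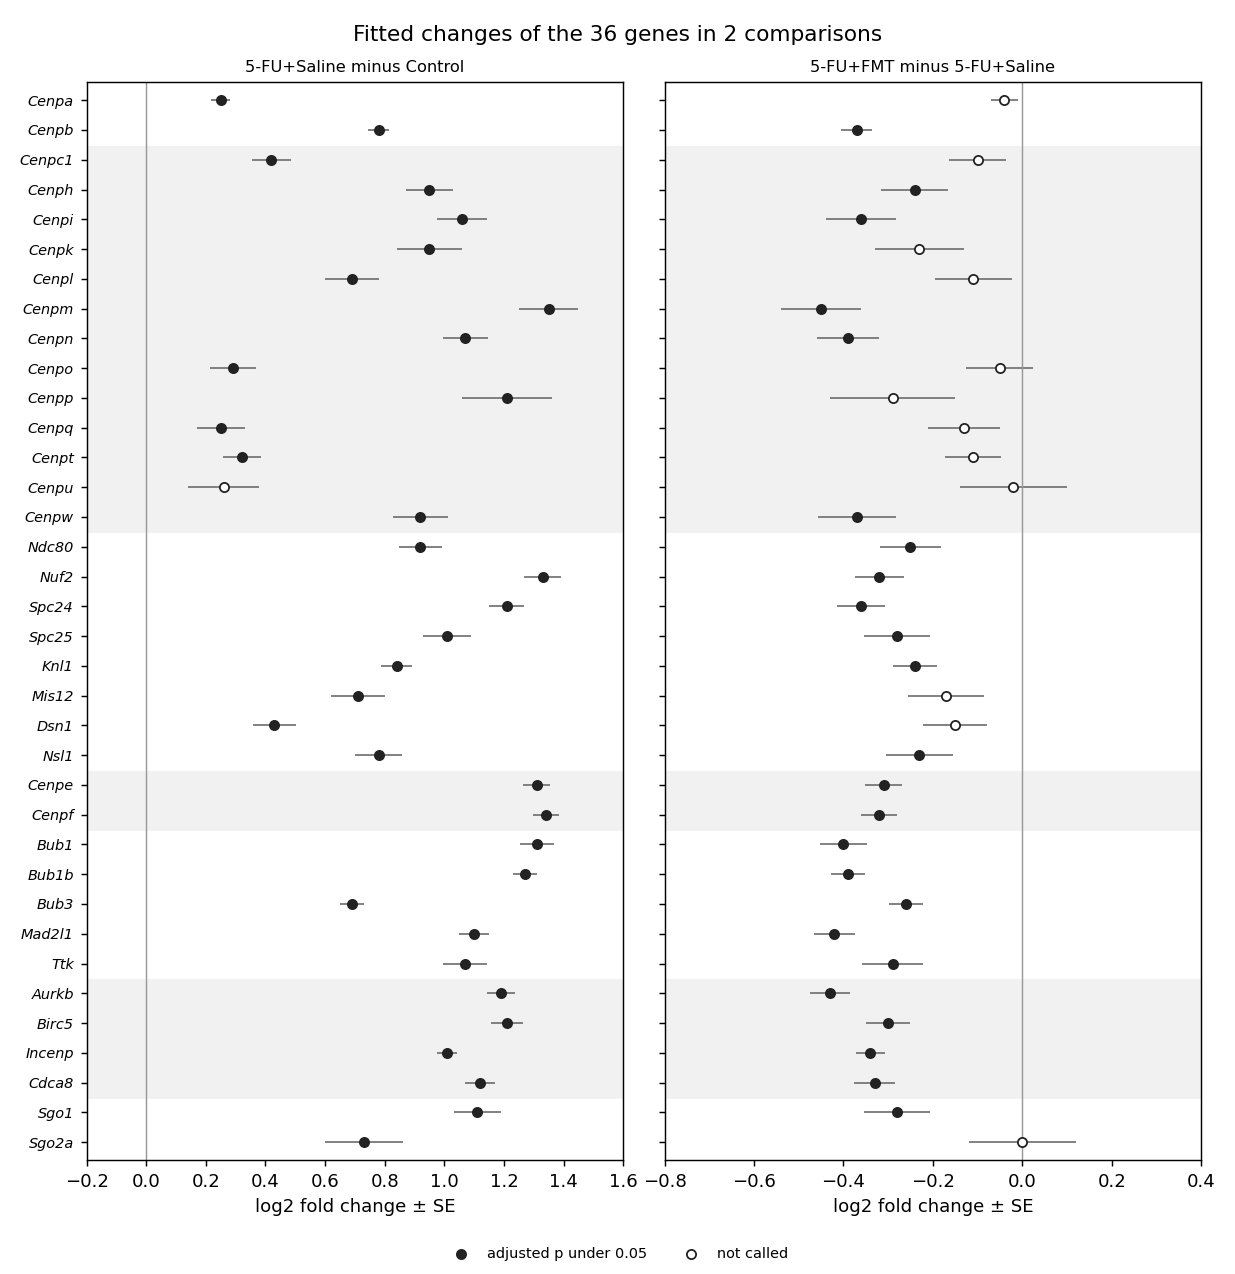
Fitted log2 fold change of each of the 36 genes with its standard error, for 5-FU+Saline minus Control (left) and 5-FU+FMT minus 5-FU+Saline (right), filled where called and open where not. The left panel holds 35 filled points, all above 0, and the right panel 24 filled points, all below 0.

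The remaining genes followed the same pattern. Cenph, Cenpi, Cenpw, Ndc80, Spc25, Knl1, Nsl1, Bub3 and Ttk each rose in 5-FU+Saline against Control, by log2 0.69 to 1.07. Each fell in 5-FU+FMT against 5-FU+Saline, by 0.23 (Nsl1) to 0.37 (Cenpw), and each remained higher in 5-FU+FMT than in Control, by 0.44 to 0.77. Spread between replicates was small throughout: the median coefficient of variation over the 36 genes was 6.93% in Control, 3.48% with saline after 5-FU and 3.70% with FMT. Its highest value was 31.0%, for Cenpp in Control, where that gene had its lowest counts.

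Because longer genes collect more reads, levels of different genes were compared as CPM per kilobase of annotated exon, a scale that depends on which exons the annotation lists. In Control the highest level per length was that of Cenpa, at 36.1 ± 0.688 CPM per kilobase (SD, n = 3), above Incenp at 30.6 ± 1.11 and Cenpb at 25.8 ± 0.978. In 5-FU+Saline Incenp was first at 61.5 ± 0.682 and Bub1b followed at 49.8 ± 1.78. Next came Cenpb at 44.1 ± 1.16, Aurkb at 43.5 ± 1.61 and Cenpa at 43.0 ± 1.11, which did not differ beyond their spread. In 5-FU+FMT Incenp was again first at 48.6 ± 0.336, with Cenpa at 41.9 ± 0.809, Bub1b at 37.9 ± 0.964, Cenpb at 34.2 ± 0.361 and Aurkb at 32.3 ± 0.307. Sgo2a was lowest in each group, at 1.19 ± 0.319, 1.93 ± 0.0658 and 1.93 ± 0.178 CPM per kilobase.

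Proportions between genes were compared per length, in Control, 5-FU+Saline and 5-FU+FMT in that order, and some ratios within a complex separated groups while others overlapped. Incenp to Aurkb, of the passenger complex, was 1.62 ± 0.104 in Control and 1.42 ± 0.0689 in 5-FU+Saline (SD, n = 3), with 5-FU+FMT between them and no overlap between groups. Bub3 to its partner Bub1 was 1.46 ± 0.152, 0.931 ± 0.0444 and 1.03 ± 0.0738, and the libraries of both treated groups overlapped. Spc25 to Ndc80, of the NDC80 complex, was 1.47 ± 0.271, 1.57 ± 0.0993 and 1.53 ± 0.103, with overlapping groups. Other ratios join genes of the same role, whether or not they share a complex. Cenpb to Cenpa was 0.714 ± 0.0374, 1.03 ± 0.0323 and 0.816 ± 0.00887, with 3 separate groups. Dsn1 to Ndc80 was 2.23 ± 0.131, 1.58 ± 0.0588 and 1.70 ± 0.150, with the treated groups overlapping. Bub1b to Bub1 was 2.20 ± 0.106, 2.12 ± 0.103 and 2.13 ± 0.0295, with all groups overlapping. These ratios are taken within a library and do not depend on the scaling between libraries.

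Mki67, a proliferation marker that is expressed in cycling cells, gave a scale for the members that library scaling does not touch. Mki67 was at 436, 460.4 and 433 CPM in Control, 980.1, 993 and 999.8 with 5-FU and saline, and 793, 799.9 and 792 with 5-FU and FMT, a log2 change of 1.16 with 5-FU and saline and of -0.32 with FMT against saline (adjusted p = 5.99e-53 and 8.89e-19). The sum of the 36 genes was 3.63 ± 0.139 times the Mki67 level in Control (SD, n = 3), 3.04 ± 0.0626 times in 5-FU+Saline and 3.11 ± 0.00529 times in 5-FU+FMT. Both treated groups overlapped, and Control lay above them.

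The roles differed in this ratio. Centromeric chromatin stood at 0.763 ± 0.0231 in Control, against 0.472 ± 0.0146 in 5-FU+Saline and 0.519 ± 0.00529 in 5-FU+FMT, with 3 separate groups, and the inner network at 0.620 ± 0.0199, 0.445 ± 0.00516 and 0.476 ± 0.00466, also separate. The chromosomal passenger complex was at 0.667 ± 0.0415, 0.639 ± 0.0124 and 0.625 ± 0.00649, with all groups overlapping. The corona genes ran the other way, from 0.270 ± 0.00370 in Control to 0.301 ± 0.00602 in 5-FU+Saline and 0.301 ± 0.00208 in 5-FU+FMT. The outer kinetochore was at 0.568 ± 0.0244, 0.486 ± 0.00972 and 0.504 ± 0.0100, with 3 separate groups. The shugoshins were at 0.0623 ± 0.00289, 0.0555 ± 0.00175 and 0.0601 ± 0.00243, with Control and 5-FU+FMT overlapping. The spindle checkpoint was at 0.681 ± 0.0450, 0.640 ± 0.0205 and 0.623 ± 0.00373, where only Control and 5-FU+FMT were separate. Relative to Mki67 the group mean was highest in Control for 6 of the 7 roles, the corona being the exception, and in 3 of those 6 all groups were separate.

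**Figure D3:**
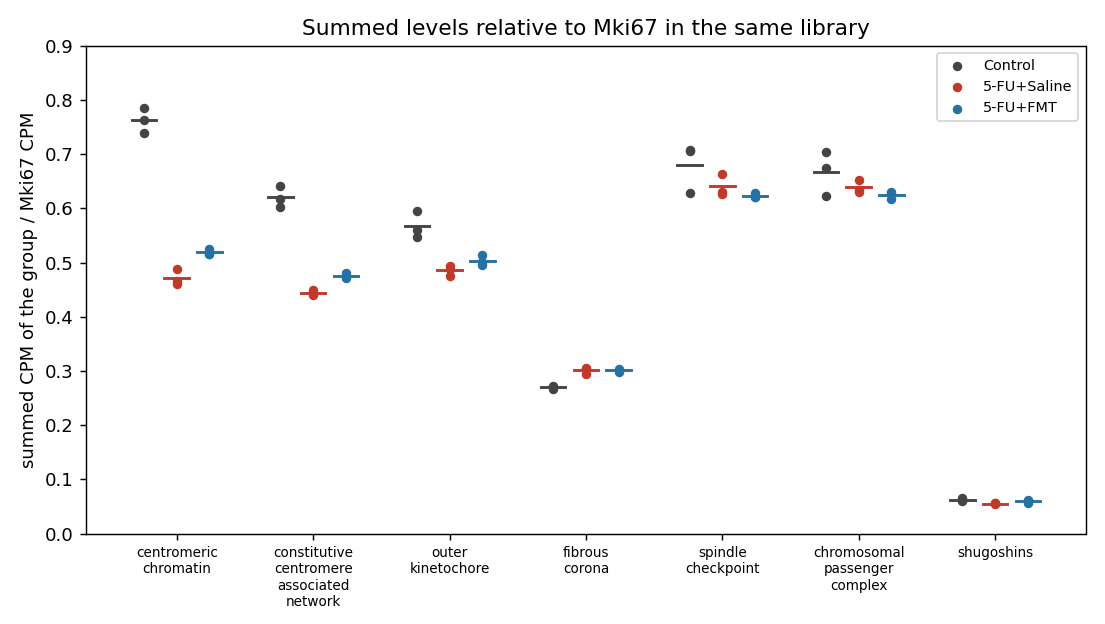
Summed CPM of the genes of each role divided by the Mki67 CPM of the same library, with a point for each library and a bar at the group mean. Centromeric chromatin falls from a mean of 0.763 in Control to 0.472 in 5-FU+Saline, while the chromosomal passenger complex lies between 0.618 and 0.705 in all 9 libraries.

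Other genes of the same processes were counted from lists, with their changes given as log2 fold changes. All 4 genes that load CENP-A onto chromatin rose in 5-FU+Saline and 2 fell with FMT. For this and the lists below, the background is 32.8% of all genes tested higher in 5-FU+Saline and 19.2% lower with FMT against saline. Hjurp, the CENP-A chaperone, was at 407, 401 and 422 CPM in Control, 476, 457 and 472 with 5-FU and saline, and 454, 453 and 451 with 5-FU and FMT. Like Cenpa, Hjurp rose little (log2 0.19, adjusted p = 5.31e-09), and its difference with FMT against saline was -0.05 (adjusted p = 0.150). Oip5, whose protein helps to prepare the centromere for new CENP-A, rose by 1.35 and fell by 0.30 (adjusted p with FMT = 0.0401).

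Of 18 other kinetochore and checkpoint genes, 17 rose and 1 fell in 5-FU+Saline (median log2 0.91), and 12 fell and 0 rose in 5-FU+FMT against 5-FU+Saline (median -0.28). The mitotic kinase gene Plk1 rose by 1.48 and then fell by 0.50 (adjusted p = 7.87e-14), and Pmf1, of the MIS12 complex, rose by 0.96 and fell by 0.31 (adjusted p = 4.29e-08). The gene that fell with 5-FU and saline was Zwint, a KNL1 partner named here after its values were seen. Zwint was at 105, 103 and 103 CPM in Control, against 94.5, 95.0 and 98.1 in 5-FU+Saline, then 105, 99.4 and 101 in 5-FU+FMT (log2 -0.11, adjusted p = 0.0203, then 0.08, adjusted p = 0.131).

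Downstream of the checkpoint, 14 of 18 genes of the anaphase-promoting complex and its partners rose in 5-FU+Saline (median 0.36) and 11 of 18 fell with FMT (median -0.13). The pair named here had the smallest p of the list with FMT against saline: Cdc20, the activator that the checkpoint restrains, rose by 1.34 and fell by 0.43, and Ube2c, the ubiquitin-conjugating enzyme that works with the complex, rose by 1.69 and fell by 0.51 (adjusted p with FMT = 1.59e-16 and 4.22e-17). Of 12 cohesin genes, 9 rose and 3 fell in 5-FU+Saline (median 0.37), and 7 fell and 1 rose with FMT against saline (median -0.13). Of all genes tested, 32.8% rose and 32.7% fell in 5-FU+Saline, and 19.2% fell and 17.7% rose with FMT against saline. Espl1, which encodes separase, the enzyme that cuts cohesin at anaphase, rose by 1.04 and fell by 0.34, and the cohesin subunit gene Rad21 rose by 0.71 and fell by 0.28.

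The cohesin genes that fell with 5-FU and saline, named after their values were seen, were Pttg1 (log2 -0.50), Wapl (-0.17) and Nipbl (-0.17). Pttg1 encodes securin, which holds separase inactive, Wapl a cohesin release factor and Nipbl a cohesin loader. Pttg1 was at 18.1, 17.3 and 19.9 CPM in Control, 14.5, 13.4 and 11.8 with 5-FU and saline, and 12.6, 15.7 and 13.8 with 5-FU and FMT, against the direction of its target Espl1 (adjusted p = 5.39e-05). Wapl was the gene of this list that rose with FMT against saline (log2 0.11, adjusted p = 0.0116).

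All 10 S phase reference genes and all 10 reference genes of G2 and M rose in 5-FU+Saline and fell in 5-FU+FMT against 5-FU+Saline. The medians were 0.93 and -0.36 for S phase, with Rrm2 at 1.59 and -0.57 and Mcm7 at 0.75 and -0.37. For G2 and M they were 1.24 and -0.37, with Top2a at 1.36 and -0.40. The summed level of the 36 genes relative to the sum of the G2 and M genes was 1.16 ± 0.0117 in Control (SD, n = 3), 0.912 ± 0.0135 in 5-FU+Saline and 0.958 ± 0.0197 in 5-FU+FMT, with separate groups. Relative to the S phase sum it was 0.808 ± 0.00744, 0.821 ± 0.00764 and 0.854 ± 0.00860, with Control and 5-FU+Saline overlapping.

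Letters that are known from the promoters of cell cycle genes were searched in RefSeq promoter windows, because the members moved together. The windows run from 250 bases before to 50 after a start site (300 bases, assembly GRCm38.p6). The table held 36 windows for 32 of the 36 genes, and none for Aurkb, Incenp, Nsl1 and Spc24. The cell cycle genes homology region (CHR) is a promoter element with the letters TTTGAA or TTTAAA, through which the DREAM complex represses genes in resting cells and MuvB with B-MYB activates them in dividing cells. CCAAT is the letter pattern of NF-Y, which often accompanies it. Both strands were searched and matches of different patterns were allowed to overlap. Letters of this length occur often by chance, and a match is not evidence of binding.

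TTTGAA was in 36.1% of the member windows and in 17.9% of 32851 windows of all genes, and TTTAAA in 19.4% and 13.2%. One or the other was in 47.2% and 27.6%. CCAAT was in 72.2% of the member windows and 37.4% of all. Any of the E2F letters TTTGGCGC, TTTCGCGC and TTTCCCGC were in 11.1% and 1.84%. Within 50 bases of the start site, a limit set after the positions were seen, CHR letters began in 13 windows of 13 members, which is 36.1% of member windows beside 8.28% of all windows. For 11 of these genes the stretch of 30 bases around the letters follows, 5′ to 3′ on the strand of the gene and from RefSeq. The matches are alike because the stretches were picked by these letters. Capitals mark the match at the centre of each stretch: TTTGAA, its reverse complement TTCAAA, or TTTAAA. The Ndc80 stretch also holds a TTTAAA match, which is left in small letters.
Cenpa (chr5:30666890-30666919, plus strand): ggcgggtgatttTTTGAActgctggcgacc
Cenpc1 (chr5:86065563-86065592, minus strand): agagccggagtcTTTAAAaaacgccaatta
Cenpn (chr8:116921719-116921748, plus strand): gccattggcggcTTCAAAagcacctcggcg
Cenpw (chr10:30200548-30200577, minus strand): tccggcggccaaTTCAAAtcgaccactcgg
Ndc80 (chr17:71526811-71526840, minus strand): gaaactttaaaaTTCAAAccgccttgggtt
Spc25 (chr2:69206172-69206201, minus strand): ggcggtggagagTTTGAAattgaaagactg
Knl1 (chr2:119047138-119047167, plus strand): agggcggttagaTTTGAAtacttcagggac
Cenpe (chr3:135212565-135212594, plus strand): ccttgaggacatTTTAAActtaaaggcggg
Cenpf (chr1:189688067-189688096, minus strand): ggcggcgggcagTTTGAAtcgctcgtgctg
Bub3 (chr7:131560315-131560344, plus strand): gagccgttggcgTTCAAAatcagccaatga
Ttk (chr9:83834684-83834713, plus strand): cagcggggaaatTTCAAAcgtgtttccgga
In Bub1b the flank runs past the end of the window and is not printed. The listed genes hold both ends of the range: Cenpf and Cenpe rose by 1.34 and 1.31 on the log2 scale with 5-FU and saline, and Cenpa and Cenpc1 by 0.25 and 0.42.

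The upstream sequences of a pair of genes with steep changes are given with their matches marked. In the Cenpf sequence of 250 bases capitals mark 1 TTTAAA and 2 CCAAT matches, and in the Bub1 sequence of 244 bases 2 matches of CCAAT or its reverse complement ATTGG and none of the CHR letters. Both are from RefSeq on GRCm38.p6, 5′ to 3′, and end at the base before the gene.
Cenpf (chr1:189688087-189688336, minus strand): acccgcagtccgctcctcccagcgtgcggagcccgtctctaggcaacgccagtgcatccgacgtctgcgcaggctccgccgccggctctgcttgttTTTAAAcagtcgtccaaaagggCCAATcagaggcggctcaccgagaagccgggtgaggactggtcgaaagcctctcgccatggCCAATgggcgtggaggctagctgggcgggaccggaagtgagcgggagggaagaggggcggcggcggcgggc
Bub1 (chr2:127831866-127832109, minus strand): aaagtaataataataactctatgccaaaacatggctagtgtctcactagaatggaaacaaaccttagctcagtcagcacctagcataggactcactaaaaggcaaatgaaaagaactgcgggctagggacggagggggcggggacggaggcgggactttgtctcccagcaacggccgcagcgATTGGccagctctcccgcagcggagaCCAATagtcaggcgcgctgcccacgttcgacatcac
Bub1 rose 2.49-fold and Cenpf 2.53-fold with 5-FU and saline.

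Markers of other cell types moved with the groups as well. The 10 markers of pro-B and pre-B cells summed to 53.7 to 54.7 CPM in Control, against 935 to 951 in 5-FU+Saline and 431 to 475 in 5-FU+FMT, and 10 of 10 rose with 5-FU and saline and 10 of 10 fell with FMT against saline, the order of the members. Pax5 was at 0.501, 142 and 65.4 CPM in the 3 groups. The 8 stroma markers summed to 4.75 to 7.91, 252 to 256 and 55.5 to 59.8 CPM and also moved 8 of 8 in both directions. The megakaryocyte sum was 262 to 271, 332 to 334 and 284 to 299.6 CPM. Of its 8 genes, 2 were higher and 4 lower in 5-FU+Saline against Control, beside 32.8% and 32.7% of all genes tested. Vwf, 1 of the 8, was at 56.0, 175 and 118 CPM.

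The sums of other lists ran against that of the members, while the genes within most of these lists moved in both directions. The erythroid sum of 10 genes was 663 to 664 CPM in Control, 186 to 188 with 5-FU and saline, and 350.4 to 372 with 5-FU and FMT, with 10 of 10 lower in 5-FU+Saline against Control. The neutrophil and granulocyte progenitor sum was 2321 to 2363, 159 to 176 and 888 to 1009.9 CPM, with 5 of 10 lower and 4 of 10 higher. The sum of 8 multipotent and lymphoid-primed progenitor markers was 1696 to 1732, 776 to 789 and 1125 to 1166 CPM, with 5 of 8 lower and 3 of 8 higher. The plasma cell sum, mostly Igha, was 12609.8 to 12853, 7645 to 7846 and 8544 to 8851 CPM, with 6 of 8 lower and 2 of 8 higher. Among all genes tested, 32.7% were called lower and 32.8% higher in 5-FU+Saline against Control. With FMT against saline, 8 of 10 erythroid genes were higher and 0 lower. The neutrophil list had 5 higher and 4 lower, the multipotent list 4 and 3, and the plasma cell list 4 and 2. Of all genes tested, 17.7% were higher and 19.2% lower there. No listed marker was at 0 in any group, and the part of these cell types in the levels of the centromere and kinetochore genes was not tested.

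**Figure D4:**
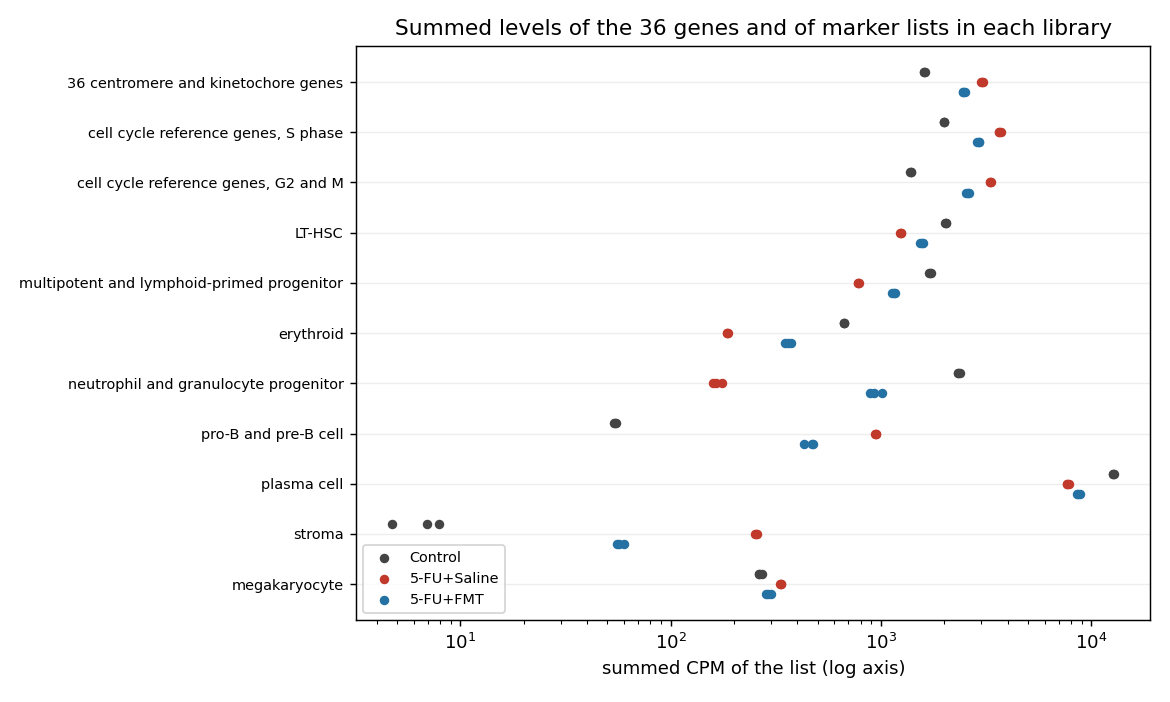
Summed CPM on a log axis of the 36 genes, of the cell cycle reference lists and of 8 marker lists, with a point for each library. The cell cycle, pro-B and pre-B cell, stroma and megakaryocyte sums have the order of the 36 genes (Control, 5-FU+FMT, 5-FU+Saline from low to high). The LT-HSC, progenitor, erythroid, neutrophil and plasma cell sums have the opposite order. The megakaryocyte sum, in which Vwf rises from 56.0 to 175 CPM while 4 of 8 genes are called lower in 5-FU+Saline, lies between 262 and 334 CPM.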

How the data were processed

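The authors deposited raw counts of read pairs per gene, with a table per library. Per the labels, Trizol total RNA went into NEBNext Ultra II libraries, read as pairs of 150 bases on an Illumina NovaSeq. Per the submitters' processing notes, the tools were Trim Galore 0.6.5, HISAT2 2.2.1, SAMtools and featureCounts 2.0.1, with mm10. Per the file headers, pairs were counted over exons of GENCODE M25 genes, with no strand option and none for multiply mapped reads, so overlapping genes and close copies (such as Sgo2b of Sgo2a) are uncertain. Of 56262 gene IDs, 55141 were given a symbol from the gene tables given, and no row lacked a gene.

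From these counts, genes were filtered with filterByExpr (minimum count 10), which left 16595, and scaled by TMM. A model of all 3 groups was fitted with edgeR's quasi-likelihood test, and the script was first tested on simulated data (R 4.3.3; edgeR 4.0.16; limma 3.58.1; package data.table in version 1.17.8). Benjamini-Hochberg adjustment ran over all genes tested within a comparison, and adjusted p-values in the text are from this test unless another tool is named. The threshold was 0.05. CPM is computed from the deposited counts with the TMM-scaled library size, over the filtered genes. Folds are fitted, and means and SDs are over 3 libraries. Lists, sums and ratios are described without a test. Alternatives were other scalings, filters and tools (DESeq2 1.42.0, limma-voom), the 2 groups alone, leaving out each library and a replicate block. Python 3.11.15 with pandas 2.3.3, numpy 2.4.6 and matplotlib 3.10.9 made the summaries and plots.

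The 36 members, their roles and the gene lists were chosen with earlier results of these data known. Values in every library are given for up to 2 members of each role with the largest change in each comparison and for every member not called in 5-FU+Saline against Control or in 5-FU+FMT against 5-FU+Saline. From each pathway list the 2 genes with the smallest p in 5-FU+FMT against 5-FU+Saline are named, and Mki67, Hjurp, Cdc20 and Espl1 always. Some items that these rules take are not reported here.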

Additional observations from a re-analysis of the deposited data

How the results depend on the processing

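Under the 17 alternatives, the members called higher in 5-FU+Saline against Control numbered 34 to 36, those called lower in 5-FU+FMT against 5-FU+Saline 23 to 26 and those called higher in 5-FU+FMT against Control 32 to 34, with 0 in the other direction in each. Leaving out single libraries gave 34 to 36, 23 to 25 and 32 to 34. Upper-quartile scaling moved the median log2 change of 5-FU+Saline against Control from 0.98 to 0.90 and the summed levels of Control, 5-FU+Saline and 5-FU+FMT to 1662, 2951 and 2441 CPM. It put the median of all genes at -0.10 in that comparison.

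Of 1836 values of single members under an alternative, 1811 kept their direction and their side of the threshold, 7 lost the call, 11 gained it and 7 changed sign. Those that changed sign were near 0 and not called: for 5-FU+FMT against 5-FU+Saline, Cenpu went to 0.07 without 5-FU+Saline replicate 3 and to 0.00 without 5-FU+FMT replicate 2 (range over single libraries left out -0.06 to 0.07). Sgo2a went to -0.01 with DESeq2 size factors, -0.01 with the DESeq2 test, -0.01 with limma-voom, -0.03 without 5-FU+Saline replicate 1 and -0.07 without 5-FU+FMT replicate 3 (range -0.07 to 0.05). Calls were lost for Cenpq in 5-FU+Saline against Control (adjusted p = 0.0582 under upper-quartile scaling and 0.0718 without Control replicate 1). In 5-FU+FMT against Control they were lost for Cenpo (0.0627 and, without Control replicate 3, 0.0974) and Cenpt (0.0684 and, without Control replicate 3, 0.0567). Cenpu in 5-FU+Saline against Control was called under 5 alternatives (lowest adjusted p 0.0318, without Control replicate 3) and Cenpk in 5-FU+FMT against 5-FU+Saline under 4 (lowest 0.0200, without 5-FU+FMT replicate 1). Cenpp in 5-FU+FMT against 5-FU+Saline was called with the 2 groups alone (0.0472). The cause was not tested.

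Replicate numbers did not pair the libraries: deviations of same-numbered libraries correlated between -0.017 and 0.019 (9 pairs), those of others between -0.03 and 0.028 (18 pairs), and 1 of 9 libraries correlated best with its own number. The fit with a replicate block gave 35, 24 and 34 calls and medians of 0.98, -0.29 and 0.69. The 3 libraries a group and levels near 10 CPM limit what can be said of Cenpu, Cenpp and Sgo2a.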
